A study of Mus musculus with 2 samples.

Results

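Immediate early genes are switched on within minutes of a growth factor, cytokine or stress signal, from transcription factors that are already in the cell and without new protein synthesis. Their mRNAs and proteins turn over fast, and many of them encode transcription factors: the Fos and Jun proteins pair as AP-1, while Egr1 and Nr4a1 bind DNA on their own. In hematopoietic stem cells (HSCs) they are known both as part of the program of quiescent cells and as genes that are easily induced while tissue is dissociated and cells are sorted. The levels of 10 such genes, Fos, Fosb, Jun, Junb, Jund, Egr1, Nr4a1, Ier2, Atf3 and Dusp1, were compared here between WT and ESAM-null fetal liver (FL) cells. They were chosen by name, and all 10 were present among the 23284 gene symbols of each library.

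RNA-seq was carried out on LSK CD48- cells of E14.5 FL, the HSC-enriched fraction that lacks lineage markers and CD48 and carries Sca-1 and c-Kit, with 1 library from WT fetuses and 1 from ESAM-null fetuses of a conventional ESAM knockout, in which the gene is targeted in all tissues. How many fetuses and cells went into a library is not stated in the sources used here. The question put to these libraries was which genes differ in HSCs whose FL hematopoiesis fails to develop without ESAM, an adhesion molecule of HSCs and endothelial cells. The sample labels state that the sorted cells went into a methylcellulose colony medium and an incubator, whereas the study describes libraries of sorted cells, so the time between sorting and lysis is uncertain. Both libraries carry the same label, and the part of this time in the values was not tested.

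Levels are FPKM, read numbers corrected for transcript length and for library size, so they can be set side by side between genes, while a comparison between the libraries depends on how they are scaled. The values rest on about 9480000 reads for WT and 11610000 for ESAM-null, as estimated from the steps between the lowest FPKM values. From these, approximate reads per gene and exact 95% intervals of each level and ratio were computed. The intervals cover counting error only and take each read as independent. PCR copies are not independent molecules, so the intervals can be too narrow even for counting error. Since each genotype is a single library, no test between genotypes can be made, and each ratio compares 2 libraries with an unknown spread between replicates. Esam itself had 117.6 FPKM in WT against 12.1 in ESAM-null, or 9.69-fold lower (8.39 to 11.3), and the exons that the remaining reads fell on were not examined here. Of 7 genes listed for the gate and for HSCs, 0 differed by 2-fold. Of all genes at 1 FPKM or more in either library, 12.8% were lower by 2-fold and 7.42% higher, and at 100 FPKM or more 1.91% and 1.77%. Kit had 94.4 FPKM in WT and 76.4 in ESAM-null, and Ly6a, which encodes Sca-1, had 99.8 and 96.7 FPKM. These 2 were lower in ESAM-null and the other 5 higher, among them Slamf1 at 5.21 and 8.25 FPKM. Cd48, whose protein was gated out, still had 16.6 and 22.0 FPKM.

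Many of the 10 genes have few or no introns, and most of their 3′ UTRs hold the pentamer of AU-rich elements more densely than the median gene. Jun, Junb, Jund and Ier2 have a single exon, so 40% of the genes had no intron, against 8.17% of 13857 genes with a transcript shared by RefSeq and GENCODE. In the 3′ UTR the pentamer ATTTA, the core of AU-rich elements that shorten mRNA life, was found at a median of 2.89 per kb in the 10 genes and 1.02 per kb over all genes. The longer TTATTTATT was present in Fos and Dusp1, or 20% of the genes, against 6.36% of all genes. The 29-base windows around it are shown because they hold the longest element of this kind searched for in the group, with the 9-base element in capitals and 5′ to 3′. Dusp1 held 2 copies, of which 1 is shown.
Fos, 3′ UTR bases 645 to 673: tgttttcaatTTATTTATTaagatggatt
Dusp1, 3′ UTR bases 93 to 121: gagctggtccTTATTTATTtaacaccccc
No other member held this element, while Nr4a1, Atf3 and Jun held 3, 3 and 4 copies of ATTTA and Ier2 held 0. Junb and Egr1 held 2 each, and Jund and Fosb 1 each. Fosb, at 0.466 per kb, lay below the median of all genes, as did Ier2.

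The 250 bases before the start of transcription (RefSeq, GRCm38.p6) were available for 8 of the 10 genes. Among them were Fos and Nr4a1, with the highest and the lowest ratio of the genes above 1 FPKM. Jun and Dusp1, also among them, were close to equal in the deposited values. These 4 genes are shown 5′ to 3′ on the strand of the gene, ending at the base before the start. The Nr4a1 gene begins at base 101253902 of chromosome 15, so its window lies within the gene, before a later start. Capitals mark matches, on either strand, to the cyclic AMP response element TGACGTCA or its core TGACG, to the Jun/ATF site TGACATCA, to the AP-1-like site TGCGTCA, and to the Egr site GCGTGGGCG or GCGGGGGCG. TGACGTCA and TGCGTCA both contain the core.
Fos, chr12:85473640-85473889, plus strand: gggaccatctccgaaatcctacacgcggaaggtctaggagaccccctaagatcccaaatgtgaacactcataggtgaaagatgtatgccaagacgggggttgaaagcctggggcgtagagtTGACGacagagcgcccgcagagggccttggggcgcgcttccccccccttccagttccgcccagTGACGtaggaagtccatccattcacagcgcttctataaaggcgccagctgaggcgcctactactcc
Nr4a1, chr15:101266596-101266845, plus strand: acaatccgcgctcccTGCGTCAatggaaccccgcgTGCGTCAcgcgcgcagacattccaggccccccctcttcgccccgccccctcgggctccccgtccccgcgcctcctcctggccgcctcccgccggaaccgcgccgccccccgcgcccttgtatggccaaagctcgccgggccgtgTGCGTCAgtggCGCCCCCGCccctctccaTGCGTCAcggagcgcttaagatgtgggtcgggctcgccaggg
Jun, chr4:95052223-95052472, minus strand: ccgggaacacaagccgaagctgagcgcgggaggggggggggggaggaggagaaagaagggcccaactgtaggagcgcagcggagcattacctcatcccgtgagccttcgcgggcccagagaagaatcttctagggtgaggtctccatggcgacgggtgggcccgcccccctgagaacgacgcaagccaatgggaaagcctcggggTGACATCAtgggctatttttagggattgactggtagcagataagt
Dusp1, chr17:26508473-26508722, minus strand: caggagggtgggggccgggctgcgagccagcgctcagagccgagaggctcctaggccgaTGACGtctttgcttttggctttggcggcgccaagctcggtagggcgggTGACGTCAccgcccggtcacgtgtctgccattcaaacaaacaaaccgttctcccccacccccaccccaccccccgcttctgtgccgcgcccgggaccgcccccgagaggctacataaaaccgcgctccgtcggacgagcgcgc

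The core was present in 6 of the 8 promoter windows, those of Fos, Fosb, Junb, Nr4a1, Atf3 and Dusp1, against 17.8% of 32851 RefSeq promoters. Nr4a1 held 4 copies of TGCGTCA, which begin at -235, -215, -71 and -42 from the start, and its only match to the Egr site lies between the last 2 of them. TGCGTCA was found in 1.75% of all promoters and the Egr site in 3.06%, and among the 8 windows both were found only in Nr4a1 and Fosb. The Fos window held 2 cores, at -129 and -66, and a TATAAA at -33 that is not in capitals and was in 12.4% of all promoters and in no other of the 8. The full TGACGTCA of Dusp1 (1.55% of all promoters) and the TGACATCA of Jun (2.93%) were each in 1 of the 8 windows. The classical AP-1 sites TGACTCA and TGAGTCA (4.46% of all promoters) and the CArG box bound by serum response factor (1.47%) were in none of the 8 windows of this length. These matches describe the letters of the windows and are not measurements of binding.

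Fos was the only member that was higher in ESAM-null under each of the 4 scalings tried as well as in the deposited values. Fos, the partner that gives AP-1 its strong DNA binding, had 87.4 FPKM in WT (about 1554 reads) and 139.6 FPKM in ESAM-null (about 2704 reads), 1.60-fold higher (1.5 to 1.70). Its close relative Fosb had 0.594 FPKM in WT against 0.191 in ESAM-null, or 3.11-fold lower, and about 20 and 7 reads stand behind these values, so that the interval ran from 1.26 to 8.71. Fosb lay below 1 FPKM in both libraries and is left out of the counts below. Among all genes in order of level, Fos stood at place 1401 in WT and at place 1035 in ESAM-null.

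The 3 Jun genes, whose proteins can pair with one another as well as with Fos, did not share 1 direction. Jun had 142 FPKM in WT against 154 in ESAM-null, with a ratio of 1.08 (1.03 to 1.13). Junb had 85.1 FPKM in WT against 65.8 in ESAM-null, or 1.29-fold lower (1.19 to 1.40). Jund, the most abundant Jun gene in WT and the one that is least dependent on stimulation, had 185.6 FPKM in WT against 141 in ESAM-null, or 1.31-fold lower (1.24 to 1.39). Junb and Jund were lower by nearly the same ratio, and Jun was slightly higher in the deposited values. The direction for Jun turns with the scaling, with a log2 ratio of 0.11 as deposited and -0.17 once both libraries are set to the same total FPKM.

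Summed over the 5 Fos and Jun genes, the AP-1 transcripts came to 501 FPKM in WT against 500.5 in ESAM-null, while the makeup of the sum differed. Fos made up 17.4% of it in WT and 27.9% in ESAM-null. Jund made up 37.0% in WT and 28.2% in ESAM-null, and Junb 17.0% and 13.1%. Jun held a similar share in both, 28.4% and 30.7%. Fos and Fosb together came to 88.0 FPKM in WT against 139.8 in ESAM-null, and the 3 Jun genes to 413 and 361 FPKM. The near equality of the 2 sums depends on the scaling, since the AP-1 genes took 0.0667% of all FPKM in WT and 0.0549% in ESAM-null, whereas the shares within the sum do not depend on it.

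**Figure D1:**
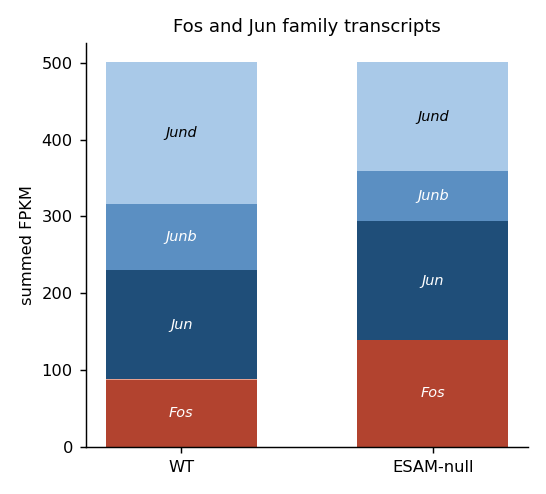
Stacked FPKM of the 5 Fos and Jun genes in the WT and the ESAM-null library (1 each, no error bars), with the height of each block equal to the gene's FPKM. Both stacks end near 501 FPKM, the Fos block is taller in ESAM-null (139.6 against 87.4) and the Jund and Junb blocks are shorter; Fosb, below 1 FPKM, is too thin to see.

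Nr4a1 was the only member that passed 2-fold among those with at least 1 FPKM. Nr4a1, an orphan nuclear receptor also called Nur77, had 213 FPKM in WT (about 4519 reads) and 101 FPKM in ESAM-null (about 2332 reads), 2.11-fold lower (2.01 to 2.22). It was the second most abundant of the 10 genes in WT and the 6th in ESAM-null, and it went from place 554 to place 1379 among all genes. Its log2 ratio stayed past 2-fold under each of the 4 scalings tried, from -1.36 to -1.01. The counting interval was computed for the deposited values only, where its upper log2 bound was -1.006. Median scaling moved every log2 ratio up by 0.065, so under it the interval would reach within 2-fold. The other members of its family had lower values as well: Nr4a2 had 10.9 FPKM in WT against 4.63 in ESAM-null, or 2.36-fold lower (1.95 to 2.88), and Nr4a3 had 0.443 FPKM in WT and was listed at 0 in ESAM-null. The summed FPKM of the Nr4a family was 224 in WT and 105.5 in ESAM-null.

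Egr1, a zinc finger factor of the growth factor response, had 30.3 FPKM in WT against 21.9 in ESAM-null, or 1.39-fold lower (1.25 to 1.54). Egr2 and Egr3, at 0.423 and 0.439 FPKM in the WT library, were both listed at 0 in ESAM-null, and Egr4 was listed at 0 in WT and had 0.154 FPKM in ESAM-null. Atf3, a stress-induced bZIP factor that can pair with Jun proteins, had 8.39 FPKM in WT against 5.68 in ESAM-null, or 1.48-fold lower with the wide interval of 1.14 to 1.93 that about 140 and 103 reads allow. For both genes the intervals of the 2 libraries did not overlap, and the ratio stayed within 2-fold.

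Ier2 and Dusp1 were the members nearest to equal besides Jun. Ier2, a short intronless gene that encodes a nuclear protein, was the most abundant of the 10 in both libraries, with 326 FPKM in WT against 304 in ESAM-null, or 1.07-fold lower (1.03 to 1.12). Dusp1, a phosphatase that switches off ERK, JNK and p38 kinases and so ends the response, had 115.5 FPKM in WT against 114 in ESAM-null. The Dusp1 ratio was 0.986, with an interval of 0.927 to 1.05 that includes 1. Its log2 ratio moved from -0.02 to 0.05 when the median levels of the libraries were set equal. Once both libraries were set to the same total FPKM, the log2 ratio was -0.30 for Dusp1 and -0.38 for Ier2.

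The plot of levels shows how little the order of the 10 genes changed at its ends. In WT the order was Ier2, Nr4a1, Jund, Jun, Dusp1, Fos, Junb, Egr1, Atf3 and Fosb, and only the neighbours Fos and Junb had overlapping intervals. In ESAM-null it was Ier2, Jun, Jund, Fos, Dusp1, Nr4a1, Junb, Egr1, Atf3 and Fosb, and only Jund and Fos overlapped. Ier2 stayed at the top and Egr1, Atf3 and Fosb at the bottom, while Nr4a1 and Fos changed places around Dusp1. Levels spanned from 326 to 0.594 FPKM in WT and from 304 to 0.191 FPKM in ESAM-null.

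**Figure D2:**
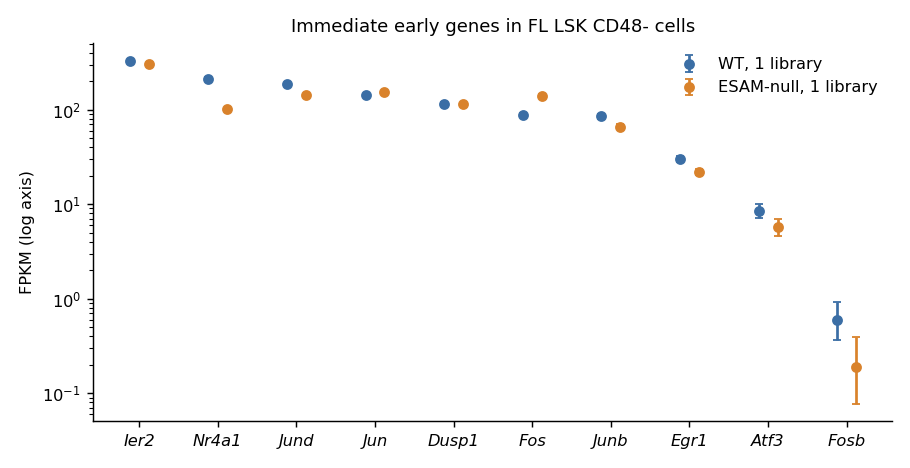
FPKM of the 10 genes (log axis, genes in the order of their WT level) in the WT library (blue) and the ESAM-null library (orange), with exact 95% counting intervals that are mostly smaller than the points. Nr4a1 lies at 213 in WT and 101 in ESAM-null, Fos at 87.4 and 139.6, and the intervals of Fosb are wide.

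Of the 9 members that reached 1 FPKM in either library, 1 (Nr4a1) was lower in ESAM-null by at least 2-fold, against 12.8% of all 12066 such genes, and 0 were at least 2-fold higher, against 7.42%. These counts are near the background and are no result about the group. The median log2 ratio of the 9 genes was -0.37, with 7 below 0 and 2 above 0, where that of all genes was about 0 (6034 below and 6032 above). After rescaling to the same total, 2210 genes of the whole table were lower and 657 higher in place of 1540 and 895, every log2 ratio moved by -0.28, and the median of the 9 genes was -0.65 beside -0.28 for all genes.

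**Figure D3:**
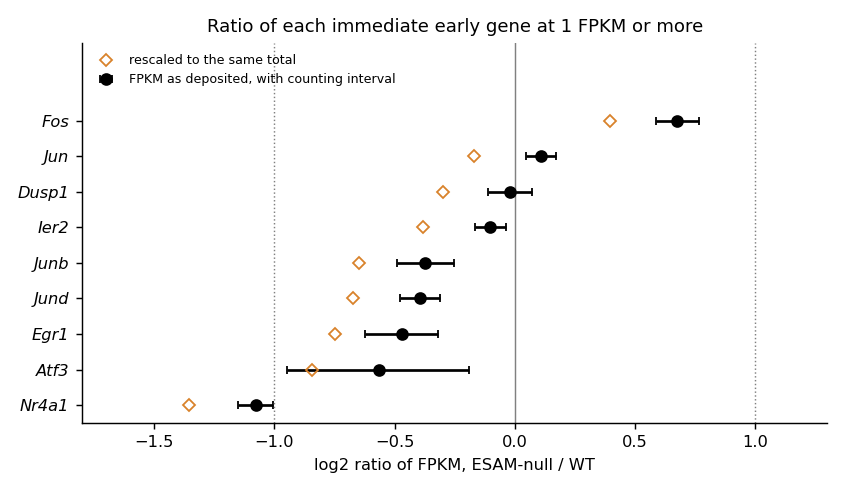
The log2 ratio, ESAM-null over WT, of the 9 members with at least 1 FPKM (black, with exact 95% counting intervals) and the same ratio after both libraries were rescaled to the same total FPKM (open diamonds), with dotted lines at 2-fold. Nr4a1 lies past the lower line at -1.08, Fos is highest at 0.68 and stays above 0 in both scalings, and Jun crosses 0.

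Since ratios past 2-fold were rarer among abundant genes, the members were also set beside genes of a similar range of level. Among the 1465 genes that reached 100 FPKM in either library, 1.91% were at least 2-fold lower and 1.77% at least 2-fold higher, and the median log2 ratio was 0.36, so most abundant genes were higher in ESAM-null as deposited. Of the 6 members in this range, which has no upper limit, 1 (Nr4a1) was lower and 0 were higher. Fos reached it only in ESAM-null, where its value was higher, so its place in the range is partly set by that limit. The other 5 reached it in both libraries. A lower ratio than that of Nr4a1 was held by 27 of the 1465 genes, or 1.84%, and a lower ratio than that of Jund by 5.05%.
A lower ratio than that of Ier2 was held by 11.5%, of Dusp1 by 15.2%, of Jun by 24.4% and of Fos by 84.0%. Between 30 and 100 FPKM, where 2540 genes had a median log2 ratio of 0.08, 14.7% had a lower ratio than Junb and 10.9% than Egr1. Egr1 reached 30 FPKM only in WT, where its value was higher, so its place is also partly set by the limit of the range. For Atf3, 26.8% of 6192 genes between 3 and 30 FPKM had a lower ratio, with a median log2 ratio of -0.13 in that range. The median of a range was higher at higher levels, and these places describe 2 libraries and carry no test.

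**Figure D4:**
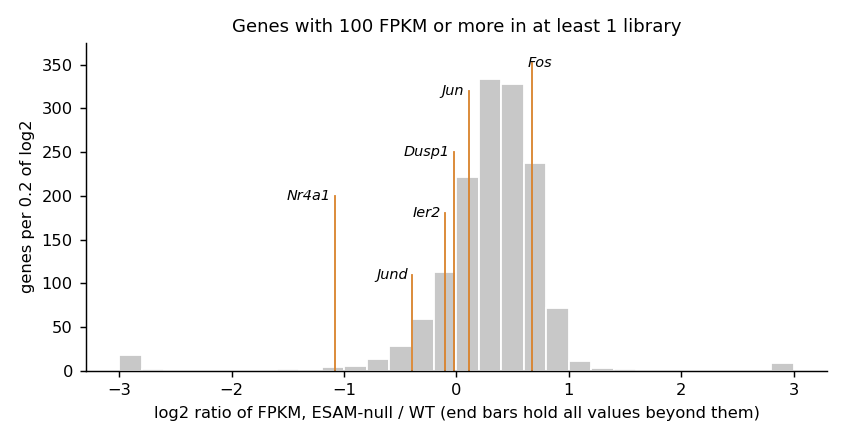
Number of genes per 0.2 of log2 ratio (ESAM-null over WT FPKM) among the 1465 genes that reached 100 FPKM in either library, with the 6 members in this range marked by vertical lines whose heights have no meaning; the end bars hold all values beyond them. The bulk of genes lies above 0 around a median of 0.36. Nr4a1 lies at -1.08, and Fos, which reached 100 FPKM only in ESAM-null, is the one line to the right of the median.

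A wider list of 64 other immediate early genes, chosen by name, did not share 1 direction. Of 55 that reached 1 FPKM, 6 were at least 2-fold lower, 4 at least 2-fold higher and 45 neither, and their median log2 ratio was -0.07. These counts are near the 12.8% lower and 7.42% higher of all genes. After rescaling to the same total, 12 were lower and 2 higher, beside the 2210 and 657 of all 12066 genes. Csrnp1, a nuclear protein induced by AXIN1, had 24.1 FPKM in WT against 9.12 in ESAM-null, or 2.65-fold lower (2.29 to 3.08). Nfkbiz, a nuclear regulator of NF-κB target genes, had 21 and 8.15 FPKM, 2.58-fold lower (2.25 to 2.97). Fosl2, another Fos family gene, had 6.30 and 2.98 FPKM, 2.11-fold lower (1.77 to 2.53), opposite in direction to Fos.
The remaining genes on the lower side were Nr4a2, given above, Errfi1 and Ptgs2. Errfi1, a feedback inhibitor of the EGF receptor, had 3.58 FPKM in WT (about 95 reads) and 0.0347 FPKM in ESAM-null (about 1 read), a ratio of 0.00968 (0.000242 to 0.0551). Ptgs2, the inducible cyclooxygenase, had 1.48 FPKM in WT against 0.0247 in ESAM-null, a ratio of 0.0167 (0.000387 to 0.0901). Errfi1 and Ptgs2 reached 1 FPKM only in WT, so they are counted through that value alone. With 1 FPKM required in both libraries, 4 of 51 genes of the list were lower and 3 higher, beside 761 and 437 of all 10674 genes.

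The 4 genes on the higher side include 2 that respond to signals outside the ERK route. Id1, an inhibitor of basic helix-loop-helix factors that BMP signals induce, had 47.3 FPKM in WT against 97 in ESAM-null, or 2.05-fold higher (1.79 to 2.34). Hes1, a repressor induced by Notch, had 3.07 and 13.2 FPKM, 4.32-fold higher (3.03 to 6.43). Cyr61, a secreted matrix protein, had 1.69 and 6.26 FPKM, 3.71-fold higher (2.43 to 5.72), and Dusp10, a phosphatase of JNK and p38, had 0.931 and 1.91 FPKM. Dusp10 reached 1 FPKM only in ESAM-null, where it was higher. The most abundant genes of the list were within 2-fold, with Dusp2, an ERK phosphatase, at 281 FPKM in WT against 310 in ESAM-null, Zfp36l2, which binds AU-rich elements, at 259 and 199 FPKM, and the chemokine gene Ccl4 at 195 and 207 FPKM.

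The other bZIP genes, of which only some encode proteins that can pair with Fos or Jun proteins, had a median log2 ratio of 0.02. This median lies below 0 after rescaling to the same total. Of 19 genes, 3 were lower and 1 was higher, against 12.8% and 7.42% of all genes. Of the 3, Creb5 and Crebl2 count only through a listed value of 0. Jdp2, a repressor that pairs with Jun proteins, had 3.91 FPKM in WT against 1.22 in ESAM-null, or 3.21-fold lower (1.85 to 5.82). Creb5 and Crebl2, with 1.35 and 1.96 FPKM in WT, had values of 0 in ESAM-null, and Atf5 had 1.11 and 2.36 FPKM. The abundant Nfe2, of erythroid and megakaryocytic cells, had 275 and 286 FPKM, Atf4, of the stress response, 142 and 132 FPKM, and Batf, a partner of Jun proteins, 69.9 and 97.7 FPKM.

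Upstream of the 10 genes, the list of serum response factor, its ternary complex partners and the CREB and MEF2 factors had 2 of 15 genes lower, 0 higher and 12 of 15 log2 ratios below 0, with a median of -0.22. Mef2a, a MADS-box factor, had 11.1 FPKM in WT against 2.34 in ESAM-null, or 4.72-fold lower (3.84 to 5.90), and Crtc3, a coactivator of CREB, had 6.14 and 2.80 FPKM, 2.19-fold lower (1.78 to 2.70). Crtc2, another CREB coactivator, had 28.5 and 14.9 FPKM, 1.91-fold lower. Srf itself had 13.7 and 8.63 FPKM, 1.59-fold lower, while the related Mef2c was at 38.7 and 39.6 FPKM and Elk3, a ternary complex factor, at 29.6 and 29.3 FPKM. The share past 2-fold in this list is near the 12.8% of all genes. Most of the list lay between 3 and 30 FPKM, a range whose 6192 genes had a median log2 ratio of -0.13.

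In the ERK, JNK and p38 cascade, which carries signals to these factors, 3 of 29 genes were lower and 1 was higher, against 12.8% and 7.42% of all genes, and the median log2 ratio was -0.11. Mapk9, which encodes JNK2, had 11.3 FPKM in WT against 3.66 in ESAM-null, or 3.09-fold lower (2.58 to 3.70). Mapk12, a p38 kinase, had 2.08 and 0.232 FPKM. Mapk11, another p38 kinase, had 3.56 FPKM in WT against 0.0872 in ESAM-null from about 2 reads, a ratio of 0.0245 (0.00291 to 0.0916).
The main p38 gene Mapk14 was close to equal at 100.2 and 95.4 FPKM, as was the adaptor Grb2 at 88.8 and 98.9 FPKM, while the kinase gene Rps6ka1 had 110 and 69.9 FPKM. Ksr1, a scaffold of the ERK route, was on the higher side at 0.383 and 1.48 FPKM. Mapk11, Mapk12 and Ksr1 reached 1 FPKM only in the library where they were higher, so they are counted through that value alone.

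Among phosphatases and inhibitors that dampen the cascade, 3 of 15 genes were lower and 1 was higher, against 12.8% and 7.42% of all genes, and the median log2 ratio was -0.33. Some of these genes, Errfi1, Dusp10, Dusp5 and Dusp6 among them, are also in the list of other immediate early genes. Spred2, an inhibitor of the RAS to ERK step, had 4.77 FPKM in WT against 1.28 in ESAM-null, or 3.73-fold lower (2.56 to 5.71). Dusp14, with 1.03 FPKM in WT, counts only through a listed value of 0 in ESAM-null, and Errfi1 and Dusp10 completed the genes past 2-fold. Errfi1 and Dusp10 also reached 1 FPKM only in the library where they were higher. The ERK phosphatases whose genes are induced by ERK itself did not share 1 direction, with Dusp5 at 105.5 FPKM in WT against 71.0 in ESAM-null and Dusp6 at 37.3 and 54.2 FPKM. Not all genes in the list of AP-1 controls act on AP-1 proteins. Of its 11 genes, 1 was lower and 0 were higher, against the same shares of all genes, with a median log2 ratio of -0.25. The gene past 2-fold was Itch, a ubiquitin ligase of Jun proteins, at 9.68 and 2.23 FPKM, 4.34-fold lower (3.53 to 5.38), while Cops5, a subunit of the COP9 signalosome, had 123.6 and 106 FPKM and Men1, whose product binds JunD, had 42.1 and 40.3 FPKM.

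**Figure D5:**
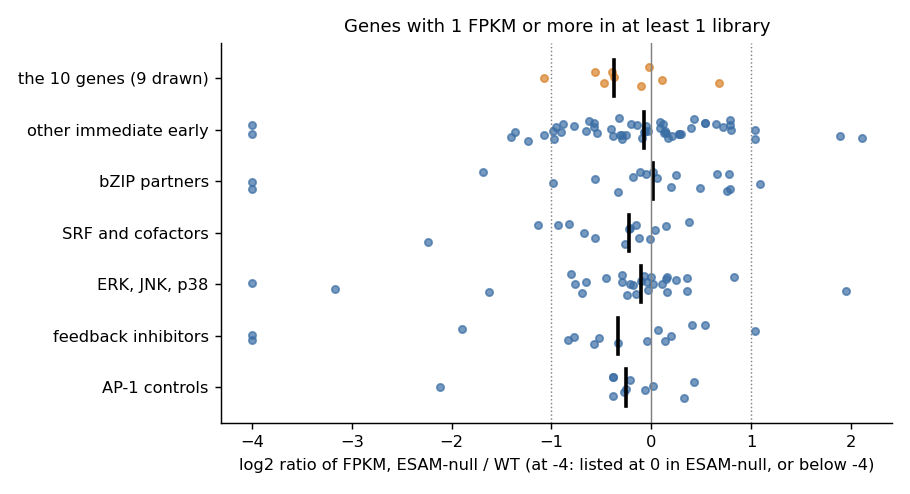
The log2 ratio, ESAM-null over WT, of each gene that reached 1 FPKM in either library, in the 10 immediate early genes (orange, 9 drawn) and 6 related lists (blue), with a black bar at each median and dotted lines at 2-fold. Medians run from -0.37 for the members to 0.02 for the other bZIP genes (labelled bZIP partners), and each list has most of its genes between the dotted lines. Some genes are drawn in more than 1 list.

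In a bulk library, fewer cells of a type and less RNA per cell cannot be told apart, and FL cells other than HSCs also use immediate early genes. Of 8 macrophage markers found, 5 were listed at 0 in ESAM-null and 0 were so listed in WT. Over all 23284 symbols, 10245 were listed at 0 in ESAM-null and 8979 in WT, so listed zeros were more frequent in ESAM-null over the whole table. The sum of all 8 markers was 16.0 FPKM in WT against 10.6 in ESAM-null. The markers did not share 1 direction, since C1qc had 3.38 FPKM in WT against 5.07 in ESAM-null and Csf1r 2.17 against 3.59. The 6 endothelial markers summed to 34.9 and 33.0 FPKM, with Pecam1 at 20.8 and 12.1 FPKM, Tek at 10.9 and 16.3 FPKM, Cdh5 at 0.954 and 3.33 FPKM and Lyve1 listed at 0 in ESAM-null. The 6 hepatocyte markers summed to 9.55 and 14.2 FPKM, of which 4, Alb among them, were listed at 0 in ESAM-null, while Apoa1 had 1.09 and 7.52 FPKM and Afp 4.35 and 6.69 FPKM. The 6 neutrophil markers summed to 257 and 263 FPKM, of which Prtn3 and Mpo, also used by early progenitors, made up nearly all, and the 4 megakaryocyte markers to 83.9 and 94.7 FPKM with Itga2b at 5.05 and 2.23 FPKM and Ppbp at 1.46 and 3.69 FPKM. The part of these cells in the ratio of Nr4a1, or of any other member, was not tested.
Elane and Ctsg were listed at 0 in both libraries beside 186 FPKM of Prtn3 in WT, so a value listed at 0 in these files is not read as an absent transcript.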

How the data were processed

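RNA-seq libraries of LSK CD48- FL cells at E14.5, 1 per genotype, were analysed. The authors deposited FPKM per gene symbol. The submitters' processing notes list alignment with Bowtie2 2.2.3 and TopHat2 2.0.13 among the tools, with Cuffnorm 2.2.1, SAMtools 0.1.19 and the build mm10. The annotation and the handling of multi-mapping reads are not given in the sources used. ESAM-null FPKM was divided by WT FPKM, and genes that reached 1 FPKM in either library were counted at 2-fold. Approximate reads came from FPKM, GENCODE M21 transcript length (GRCm38, that is mm10) and the worth of a single read, with fragments of 200 bp (SD 80 bp) assumed; of low genes, 66.8% (WT) and 70.6% (ESAM-null) were within 0.05 of a whole number of reads. Intervals of ratios are exact (Clopper-Pearson, 95%). The steps were tested on simulated data. Promoters came from RefSeq. The members and gene lists were chosen with earlier results of these data known. From each list, genes past 2-fold (up to 4 per direction) and up to 3 others were named by level, and 1 gene this rule names is not reported here; Nr4a3, Egr2, Egr3, Egr4, Ptgs2, Srf and the genes named among cell type markers fall outside this rule and were named after their values were seen. Filters, pseudocounts, thresholds and scalings were varied. Calculations used scipy 1.17.1, pandas 2.3.3 and numpy 2.4.6 in Python 3.11.15, and figures matplotlib 3.10.9.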

Additional observations from a re-analysis of the deposited data

How the results depend on the processing

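With 1 library per genotype, no replicate could be left out, and these values depend on 2 libraries whose spread is unknown. No paired analysis was possible because each genotype has a single library. The depth leaves Fosb unresolved: it enters the lower genes when the filter is lowered to above 0 in both libraries. This makes 2 of 10 members at least 2-fold lower, beside 1600 of all 12641 genes above 0 in both. At a threshold of 1.5-fold, 1 member (Fos) was higher, and at 3-fold 0 members were lower. For the 55 other immediate early genes counted, the threshold of 1.5-fold gave 14 lower and 9 higher, and that of 3-fold 2 lower and 2 higher. Of all 12066 genes, 2632 were lower and 2095 higher at 1.5-fold, and 877 and 490 at 3-fold. Rescaling both libraries to a total of 1000000 gave a median log2 ratio of -0.65 for the members and -0.35 for the other immediate early genes. Of the latter 12 were lower and 2 higher, beside 2210 and 657 of all 12066 genes. The other 55 values of these counts and medians, with a filter of 5 FPKM in either library or of 1 FPKM in both libraries, a pseudocount of 0.1 or 1, median, upper quartile and trimmed mean scaling, or 1 member left out, stayed within 1.5 times the count or, for a median, between the medians of the lower and of the upper counting bounds of its genes. Leaving out 1 member put the members' median between -0.38 and -0.24, so it rests on few genes. A fragment length of 300 bp moved no bound of a member's ratio across 1 or across 2-fold.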
